A study of Homo sapiens with 9 samples.

Results

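The transcripts of 48 genes of the lysosome were followed in SKMEL28 melanoma cells: 16 subunits and accessory proteins of the V-ATPase, 9 cathepsins and other peptidases, 12 glycosidases and sulfatases, 4 lipid hydrolases and activators, 5 membrane proteins and the transcription factors TFEB and TFE3. The genes were taken from a list of names by function, with no measured value in the rule, and all 48 were found among the 48162 rows of the count table, each in 1 row. All 48 passed the filter on low counts and were tested among 15776 genes. SKMEL28 is a human melanoma line, and 3 groups of 3 RNA-seq libraries each were compared: cells carrying an shRNA against GFP as control (shCont), cells with p16 knockdown (shp16) and cells with p16 and ATR knockdown (shp16/shATR). Every group was grown in DMEM with 5% FBS, received lentivirus and was selected with puromycin at 1 µg/ml for 3 days, so no group was free of virus or of selection. An shRNA lowers a transcript without deleting the gene, and the share of selected cells that expressed each hairpin is not given in the sources used here. Which ATR hairpin was used, and whether shp16 cells also received a second control virus, is not given in the sources used here. Per the study's legend the replicates are repeats within a single experiment, so p-values measure only the spread between these libraries. The shp16 group asks what loss of p16, the CDKN2A product that inhibits CDK4 and CDK6, does to these transcripts, and the shp16/shATR group asks what loss of the DNA damage kinase ATR adds to it.

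The lysosome degrades protein, glycan and lipid in an acidic lumen. The V-ATPase pumps protons into it: the V1 sector, in the cytosol, hydrolyses ATP, and the V0 sector, in the membrane, conducts protons. Soluble hydrolases work in the lumen, and heavily glycosylated proteins such as LAMP1 and LAMP2 line its membrane. The same membrane is where amino acids activate mTORC1, and mTORC1 in turn keeps TFEB and TFE3, which drive transcription of lysosomal genes, in the cytosol. In pigment cells the lysosome is related to the melanosome, and MITF is a relative of TFEB.

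The 9 libraries held between 17314662 and 23588174 counts. Levels below are FPKM (fragments per kilobase of gene model, relative to the library total) with library totals scaled by TMM, and a called gene is one with a Benjamini-Hochberg adjusted p under 0.05 in edgeR's quasi-likelihood test over all 15776 genes. A pair of libraries stood apart from the others of their group: the chi-square per degree of freedom between libraries was 68.5 and 83.4 for shCont replicate 1 against replicates 2 and 3, which differed by 5.15, and 37.9 and 37.2 for shp16 replicate 1, whose partners differed by 1.94. ATR, the target of the added hairpin, stood at 4.84 to 4.98 FPKM in the shp16/shATR libraries and 10.1 to 11.3 in shp16, and in shCont replicate 1 it stood at 5.57 against 11.3 and 11.7 in the other control libraries. CDKN2A stood at 80.4 to 126 FPKM in shCont and 60.9 to 77.8 in shp16, with no overlap (log2 fold change -0.48 ± 0.16, adjusted p = 0.0719), which did not pass the test. In shp16/shATR it stood at 64.2 to 70.2 FPKM and was called lower than in shCont (-0.57 ± 0.16, adjusted p = 0.0263). Gene positions are printed as in the deposited tables, which hold GRCh37 positions. The libraries are of bulk RNA, in which fewer cells of a kind and less RNA per cell cannot be told apart. All 8 melanocyte markers were present and summed to 4804 to 5685 FPKM in shCont, 2726 to 4637 in shp16, lowest in replicate 1, and 4086 to 4858 in shp16/shATR. The fall in shp16 replicate 1 was mostly in PMEL, at 1182 against 2843 and 2816 in its partners. MITF was highest in that library (171 against 143 and 139). The other markers were lower there by a smaller factor than PMEL, such as SOX10 (297 against 319 and 314) and DCT (310 against 415 and 405). The 6 leukocyte and macrophage markers summed to at most 0.268 FPKM with PTPRC and CD3E at 0 in every library, and 4 epithelial markers summed to 0.593 to 0.934 FPKM in shCont, 5.81 to 6.43 in shp16 and 5.78 to 7.17 in shp16/shATR. Of the epithelial markers, CDH1 (mean 0.491 FPKM in shCont and 3.66 in shp16), KRT5 and KRT14 rose, and EPCAM did not (0.203 and 0.115). The epithelial sum moves with p16 knockdown and the melanocyte sum with shp16 replicate 1, like several results below, and the part of either in them was not tested.

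Among the 48 genes, shp16 cells had lower transcripts of many lumenal hydrolases, while the 5 membrane proteins and most V-ATPase subunits stayed under the threshold. In shp16 against shCont, 15 of the 48 genes were called (31.3%, where 14.8% of all genes tested were called), 2 higher and 13 lower, where 7.23% of all genes were called higher and 7.59% lower. Of the 25 lumenal hydrolases and activators, 12 were lower and 1 was higher, 21 had a negative log2 fold change, and the median was -0.47, beside -0.02 over all genes tested. The 16 V-ATPase genes gave 1 higher and 1 lower, with a median of 0.02. In edgeR 7 of them had an unadjusted p under 0.05, beside 16 of the 25 lumenal genes. None of the 5 membrane proteins was called by edgeR, by DESeq2 or by limma, and none had an unadjusted p under 0.05. The 3 libraries of shp16 lay entirely outside the range of shCont for 23 of the 48 genes (47.9%), beside 33.6% of all genes tested.

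**Figure D1:**
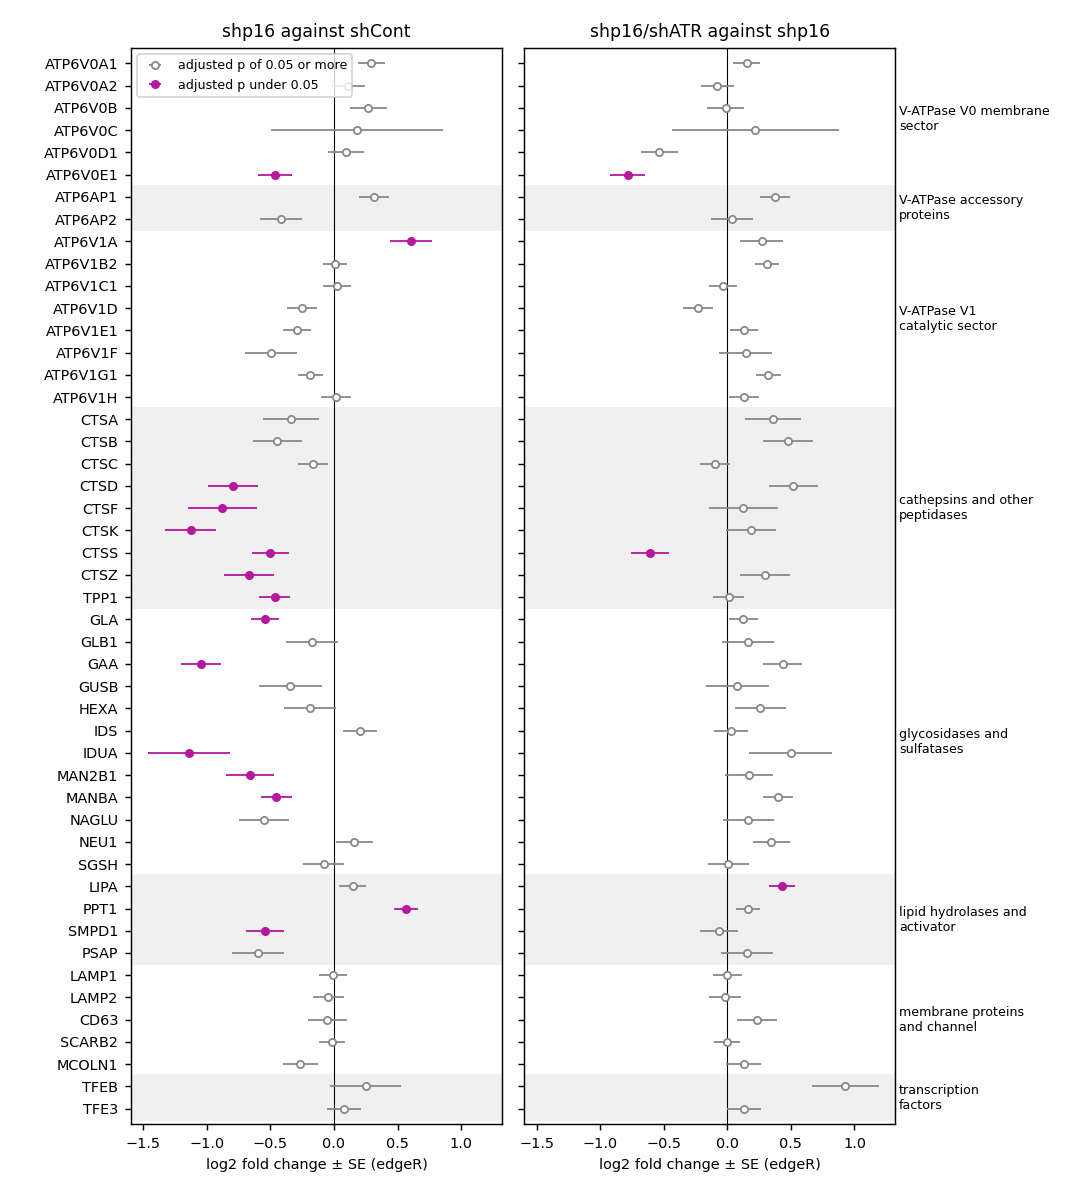
Log2 fold change of each of the 48 genes with its standard error, from edgeR, for shp16 against shCont (left) and shp16/shATR against shp16 (right); filled points have an adjusted p under 0.05. On the left 12 filled points of the peptidase, glycosidase and lipid rows and ATP6V0E1 lie below 0, and PPT1 and ATP6V1A lie above it, and on the right the filled points are ATP6V0E1 and CTSS below 0 and LIPA above.

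The count depended on which libraries were in the fit. In shp16 replicate 1, 24 of the 25 lumenal genes lay below the mean of shp16 replicates 2 and 3, with a median log2 ratio of -0.60, beside 0.00 over all genes tested. Of the 8 V1 subunits 7 lay above it (median 0.06), the V0 subunits were split 3 and 3 (median -0.01) and both accessory proteins, ATP6AP1 and ATP6AP2, lay below (-0.33 and -0.66). In shCont replicate 1, 21 of the 25 lumenal genes lay above the mean of the other control libraries, with a median of 0.26. Both shifts widen the distance between shp16 and shCont. Without shp16 replicate 1, 5 of the 48 genes were called in shp16 against shCont (10.4%, where over all genes 4.52% were higher and 4.43% lower, 8.95% in all), so the share was near the background. They were PPT1 and ATP6AP1, higher, and CTSK, GLA and GAA, lower. The lumenal median was -0.35, with 18 of 25 below 0. Without shCont replicate 1, 16 were called, 5 higher and 11 lower (13.4% and 12.5% of all genes). Without both, 24 were called, 6 higher and 18 lower (16.9% and 15.8% of all genes), with 2 higher and 13 lower among the lumenal genes and a lumenal median of -0.27. Leaving out shCont replicate 2 or 3 left 8 and 13 called (16.7% and 27.1% of the 48, beside 10.1% and 14.3% of all genes). Leaving out shp16 replicate 2 or 3 left 7 and 8 (14.6% and 16.7%, beside 8.4% and 8.29%), and leaving out shp16/shATR library a, b or c left 7, 5 and 8 (14.6%, 10.4% and 16.7%, beside 10.6%, 10.9% and 11.4%). The ratio of shCont replicate 1 to its partners correlated with transcript GC content at r = 0.69 across the 48 genes without ATP6V0C (0.39 across 15212 genes). That of shp16 replicate 1 correlated at r = -0.40, again without ATP6V0C (-0.09 across 15270 genes). Genes share their library and are not independent replicates. Median GC was 52.8% for the lumenal genes, 45.9% for the V-ATPase genes and 48.1% for all genes tested. With a GC and length trend removed per library, 18 were called, 3 higher and 15 lower (11.8% and 10.5% of all genes).

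**Figure D2:**
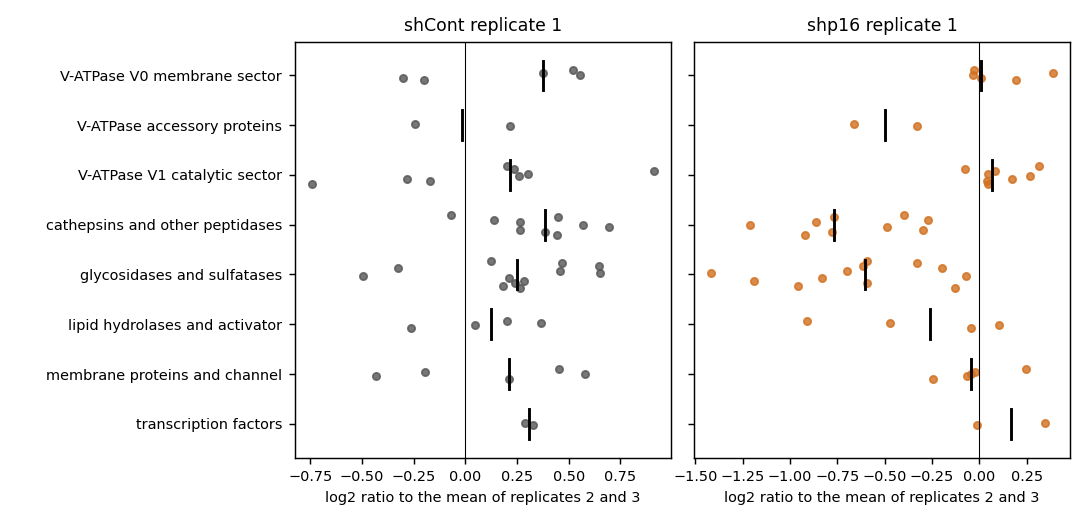
Log2 ratio of shCont replicate 1 (left) and shp16 replicate 1 (right) to the mean of replicates 2 and 3 of the same group, 1 point per gene and a bar at the median of each role; ATP6V0C, with about 10 counts per library, is left out. All 9 peptidases and all 12 glycosidases and sulfatases lie below 0 in shp16 replicate 1.

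Few of these genes passed the threshold when the ATR hairpin was added. In shp16/shATR against shp16, 3 of the 48 were called (6.25%, where 6.22% of all genes tested were called), so the share was that of the background. LIPA was higher, and ATP6V0E1 and CTSS were lower, where 2.73% of all genes were called higher and 3.49% lower. The median over the 48 was 0.15, beside 0.00 over all genes tested, and 22 of the 25 lumenal genes had a positive log2 fold change. That shift was also tied to shp16 replicate 1: without it the median was 0.03 over the 48 and 0.00 over the lumenal genes, of which 12 had a negative log2 fold change, and 2 genes were called, both lower (1.29% of all genes were higher and 1.83% lower). The library shCont replicate 1 is in neither group and enters through the shared estimate of spread, the filter on low counts and the scaling. Without it 14 were called, 11 higher and 3 lower (8.94% and 11% of all genes). Without both shCont replicate 1 and shp16 replicate 1, 25 were called, 19 higher and 6 lower (12.4% and 14.3% of all genes). Leaving out shCont replicate 3 left 3 (5.94% of all genes). Leaving out shCont replicate 2, shp16 replicate 2 or 3, or shp16/shATR library a, b or c left 1 each (2.08% of the 48), which was ATP6V0E1, beside 4.71%, 2.41%, 2.44%, 1.85%, 1.81% and 2.3% of all genes in the same order. The 3 libraries of both groups were separate for 19 of the 48 genes (39.6%), beside 37.7% of all genes.

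Against the control, shp16/shATR cells had 17 of the 48 genes called (35.4%, where 23.6% of all genes tested were called), 8 higher and 9 lower (10.9% and 12.7% of all genes), with a median of -0.06. This comparison does not use the shp16 libraries, apart from the shared estimate of spread, the filter on low counts and the scaling. It is therefore the one shp16 replicate 1 touches least. Leaving out shp16/shATR library a, b or c gave 11, 11 and 9 calls (22.9%, 22.9% and 18.8%, beside 14.5%, 14.6% and 14.9% of all genes), and leaving out both shCont replicate 1 and shp16 replicate 1 gave 31, 15 higher and 16 lower (21.1% and 23.2% of all genes). Among the lumenal genes 6 were lower and 3 higher, and among V-ATPase genes 3 were lower and 4 higher. The 3 comparisons share groups, so a level that was low in shp16 lowers the first difference and raises the second, and the values below are given side by side for that reason.

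**Figure D3:**
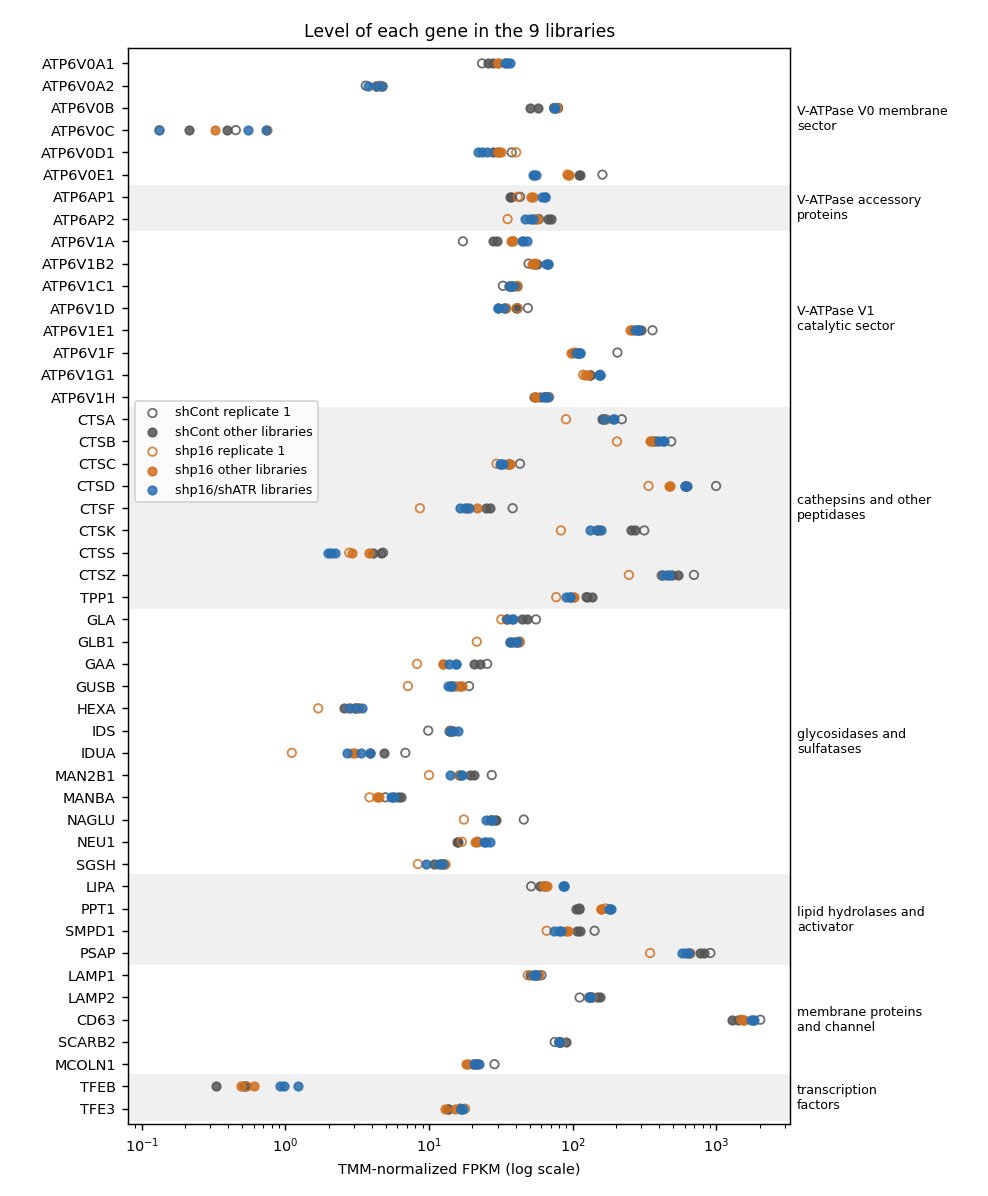
TMM-normalized FPKM of each gene in the 9 libraries on a log axis, grouped by role, with open circles for replicate 1 of shCont and of shp16. Mean levels run from 0.409 FPKM for ATP6V0C to 1625 for CD63, and in the peptidase and glycosidase rows the open circle of shp16 is mostly the lowest point.

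Levels spanned a wide range within the set. Averaged over the 9 libraries, the median gene of the 48 stood at 38.9 FPKM, beside 5.63 over all genes tested. CD63, a tetraspanin of lysosomes and melanosomes, was the most abundant at 1625 FPKM, followed by PSAP, the precursor of the saposins, at 662, and the proteases CTSD at 593, CTSZ at 459 and CTSB at 375. The libraries of these 4 genes overlapped between neighbours in that order: PSAP ran from 345 to 907 FPKM, CTSD from 337 to 994, CTSZ from 246 to 697 and CTSB from 203 to 484. By role, the median of the mean levels was 169 FPKM for peptidases, 122 for lipid hydrolases, 81.4 for membrane proteins, 59.6 for V1 subunits, 30.2 for V0 subunits and 15.4 for glycosidases and sulfatases. TFEB, at 0.680 FPKM, was the lowest apart from ATP6V0C.

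All 9 peptidases had a negative log2 fold change in shp16 against shCont, and 6 were called lower. CTSK (ENSG00000143387, chr1:150768684-150780799, - strand), a collagen-degrading cysteine protease best known from osteoclasts, stood at 314, 269.8 and 253 FPKM in shCont replicates 1 to 3, 82.6, 152 and 148 in shp16 replicates 1 to 3 and 147, 156 and 133 in shp16/shATR libraries a to c. The control libraries were all above the other 6, and shp16 replicate 1 was the lowest of the 9. The log2 fold change was -1.13 ± 0.20 in shp16 against shCont (adjusted p = 0.00312), or 0.458 times the control level, 0.19 ± 0.20 in shp16/shATR against shp16 (adjusted p = 0.669) and -0.94 ± 0.20 in shp16/shATR against shCont (adjusted p = 0.00539). Without shp16 replicate 1 it was still called lower in shp16, at -0.89 (adjusted p = 0.00192). The osteoclast markers OSCAR and CALCR were near 0, whereas ACP5 was abundant, and the 3 osteoclast markers summed to 100 to 162 FPKM in shCont, 66.9 to 121 in shp16 and 101 to 118 in shp16/shATR.

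CTSS (ENSG00000163131, chr1:150702551-150738433, - strand), the cysteine protease that trims the invariant chain in antigen-presenting cells, was lower in each of the 3 comparisons. It stood at 4.78, 4.59 and 4.09 FPKM in shCont, 2.78, 3.82 and 2.9 in shp16 and 2.06, 2.2 and 1.97 in shp16/shATR. The 3 groups formed separate steps, with no library of a group within the range of another. The log2 fold changes were -0.50 ± 0.14 in shp16 against shCont (adjusted p = 0.0381), -0.61 ± 0.15 in shp16/shATR against shp16 (adjusted p = 0.0339) and -1.11 ± 0.15 in shp16/shATR against shCont (adjusted p = 0.000311). Without shp16 replicate 1 the first was -0.41 (adjusted p = 0.123) and the second -0.69 (adjusted p = 0.0423).

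The other called peptidases lost or kept their call with the libraries in the fit. CTSD, the main aspartic protease of the lysosome, stood at 994, 620.3 and 607 FPKM in shCont, 337, 477 and 467 in shp16 and 618, 602 and 615 in shp16/shATR, so that shp16 lay below both other groups and shCont replicate 1 was far above its partners. Its log2 fold change was -0.80 ± 0.19 in shp16 against shCont (adjusted p = 0.0192), -0.65 (adjusted p = 0.0677) without shp16 replicate 1 and -0.38 (adjusted p = 1.44e-05) without both libraries that stood apart. In shp16/shATR against shp16 it was 0.52 ± 0.19 (adjusted p = 0.151) with all libraries and 0.37 (adjusted p = 9.97e-06) without those 2. CTSF, a cysteine protease, stood at 38.1, 26.6 and 24.8 FPKM in shCont, 8.63, 18.4 and 21.6 in shp16 and 17.8, 19 and 16.3 in shp16/shATR, with shp16 replicate 1 the lowest of all 9. The difference in shp16 was -0.88 ± 0.27 on the log2 scale (adjusted p = 0.0495), and -0.58 (adjusted p = 0.0853) without that library. CTSZ, a carboxypeptidase, stood at 697, 537 and 487 FPKM in shCont, 246, 413 and 425 in shp16 and 450.1, 464 and 417 in shp16/shATR, and here too the lowest library was shp16 replicate 1. Its difference from shCont was -0.67 ± 0.20 on the log2 scale (adjusted p = 0.0431) and -0.45 (adjusted p = 0.0873) without that library. TPP1, which removes tripeptides and is lost in a neuronal ceroid lipofuscinosis, was called in both comparisons with shCont. It stood at 125, 125 and 136 FPKM in shCont, 76.7, 103 and 99.8 in shp16 and 95.9, 95.5 and 89.7 in shp16/shATR, with all control libraries above the rest, and was called lower in shp16 (-0.47 ± 0.12, adjusted p = 0.0257; -0.34 (adjusted p = 0.053) without shp16 replicate 1) and in shp16/shATR against shCont (-0.46 ± 0.12, adjusted p = 0.0191).

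CTSA, CTSB and CTSC were called in no comparison. CTSB, an abundant cysteine protease, stood at 484, 382 and 359 FPKM in shCont, 203, 352 and 345 in shp16 and 428, 424 and 399 in shp16/shATR, and CTSA, the protective protein of GLB1 and NEU1, at 219, 161 and 163 in shCont, 89.7, 171 and 168 in shp16 and 194, 192 and 164 in shp16/shATR. In both, shp16 replicate 1 was the lowest library while its partners lay close to the controls. CTSC, a dipeptidyl peptidase that activates granule proteases, had log2 fold changes of -0.17, -0.09 and -0.26 in the 3 comparisons, in the order used above.

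Of the 12 glycosidases and sulfatases, 5 were lower in shp16 than in shCont and none was higher. GAA (ENSG00000171298, chr17:78075355-78093678, + strand), the acid alpha-glucosidase that degrades glycogen and is deficient in Pompe disease, stood at 25.4, 22.6 and 20.4 FPKM in shCont, 8.24, 12.4 and 12.5 in shp16 and 15.5, 15.5 and 13.8 in shp16/shATR. The groups did not overlap, and shp16/shATR lay between the other groups. The log2 fold change of GAA was -1.05 ± 0.16 in shp16 against shCont (adjusted p = 0.00117), or 0.484 times the control level, 0.43 ± 0.16 in shp16/shATR against shp16 (adjusted p = 0.138) and -0.61 ± 0.16 in shp16/shATR against shCont (adjusted p = 0.0149). Without shp16 replicate 1 the first was -0.87 (adjusted p = 0.00226) and the second 0.26 (adjusted p = 0.323). GLA (ENSG00000102393, chrX:100652791-100662913, - strand), the alpha-galactosidase A deficient in Fabry disease, stood at 55.4, 48.3 and 44 FPKM in shCont, 31.8, 35 and 34.5 in shp16 and 37.6, 38.5 and 34.6 in shp16/shATR, with every control library above the other 6. It was called lower in shp16 (-0.54 ± 0.11, adjusted p = 0.008; -0.50 (adjusted p = 0.0347) without shp16 replicate 1) and in shp16/shATR against shCont (-0.42 ± 0.11, adjusted p = 0.0199).

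The other called members of this role depended more on shp16 replicate 1. IDUA, the alpha-L-iduronidase that acts on heparan and dermatan sulfate, stood at 6.83, 4.84 and 3.86 FPKM in shCont, 1.11, 2.89 and 3.03 in shp16 and 3.38, 3.9 and 2.66 in shp16/shATR, with replicate 1 the extreme library in both shCont and shp16. IDUA had a log2 fold change of -1.14 ± 0.32 in shp16 against shCont (adjusted p = 0.0354) and -0.81 (adjusted p = 0.0756) without shp16 replicate 1. Of the mannosidases, MAN2B1 and MANBA were called lower in shp16, and MAN2B2, of the wider lysosome list, was not (log2 fold change -0.02 ± 0.09, adjusted p = 0.899). MAN2B1, the alpha-mannosidase, stood at 27.3, 20.4 and 19.3 FPKM in shCont, 9.98, 16.2 and 16.1 in shp16 and 16.9, 16.7 and 14 in shp16/shATR, all 6 knockdown libraries below the controls, with a log2 fold change of -0.66 ± 0.19 in shp16 (adjusted p = 0.0384; -0.46 (adjusted p = 0.108) without shp16 replicate 1). MANBA, the beta-mannosidase, stood at 4.95, 6.04 and 6.37 FPKM in shCont, 3.85, 4.48 and 4.35 in shp16 and 5.4, 5.68 and 5.65 in shp16/shATR, lowest in all 3 shp16 libraries. The log2 fold change was -0.45 ± 0.12 in shp16 (adjusted p = 0.0257) and -0.39 (adjusted p = 0.0923) without shp16 replicate 1, and in shp16/shATR against shp16 it was 0.40 ± 0.12 (adjusted p = 0.073).

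NEU1, the lysosomal sialidase, was called higher in shp16/shATR against shCont. It stood at 21.7, 15.8 and 15.6 FPKM in shCont, 16.9, 20.9 and 21.5 in shp16 and 24.2, 26.4 and 24.8 in shp16/shATR, so that the shp16/shATR libraries were above all others. The log2 fold change was 0.51 ± 0.14 against shCont (adjusted p = 0.0258) and 0.35 ± 0.14 against shp16 (adjusted p = 0.203). GLB1, the beta-galactosidase assayed in senescent cells, stood at 42.7, 38.5 and 36.6 FPKM in shCont, 21.5, 42.3 and 41 in shp16 and 40.7, 40.2 and 36.4 in shp16/shATR, with shp16 replicate 1 alone far below the rest, and was called in none. GUSB, HEXA, IDS, NAGLU and SGSH, which act on glycosaminoglycans and gangliosides, were not called either, with log2 fold changes in shp16 against shCont from -0.55 for NAGLU to 0.21 for IDS. Between shp16/shATR and shp16, edgeR called none of the 12 (3 at an unadjusted p under 0.05), beside 6.22% of all genes. DESeq2 called 1, MANBA (9.77% of all genes), and limma on log2(FPKM + 1) called none (5.78% of all genes). All 12 had a positive log2 fold change there with all libraries, from 0.01 to 0.50, while without shp16 replicate 1 the numbers were 7 positive and 5 negative.

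Of the 4 lipid genes, 1 was called higher and 1 lower in shp16 against shCont. PPT1 (ENSG00000131238, chr1:40538379-40563375, - strand), the palmitoyl-protein thioesterase that removes fatty acids from proteins, stood at 111, 105 and 110.4 FPKM in shCont, 169, 158 and 158 in shp16 and 180.3, 177 and 185 in shp16/shATR. The groups formed separate steps and replicate 1 did not stand apart in either group. It was called higher in shp16 (0.57 ± 0.09, adjusted p = 0.00209, 1.48 times the control level; 0.54 (adjusted p = 0.00488) without shp16 replicate 1) and in shp16/shATR against shCont (0.73 ± 0.09, adjusted p = 0.00025), while the step from shp16 to shp16/shATR was 0.16 ± 0.09 (adjusted p = 0.378). LIPA (ENSG00000107798, chr10:90973326-91174314, - strand), the acid lipase that frees cholesterol from cholesteryl esters, stood at 51.3, 59.1 and 64 FPKM in shCont, 63, 63.6 and 66.5 in shp16 and 85.3, 87.3 and 87.5 in shp16/shATR. The shp16/shATR libraries were above all 6 others, and shCont and shp16 overlapped. LIPA had a log2 fold change of 0.43 ± 0.10 in shp16/shATR against shp16 (adjusted p = 0.0333), 0.41 (adjusted p = 0.0861) without shp16 replicate 1, 0.58 ± 0.11 against shCont (adjusted p = 0.00226) and 0.15 ± 0.10 in shp16 against shCont (adjusted p = 0.384). The LIPA span in the deposited annotation holds IFIT1, IFIT2 and IFIT3 on the other strand, with means of 160, 172 and 557 counts beside 3930 for LIPA, and the strand setting of the counting is not given in the sources used here.

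SMPD1, the acid sphingomyelinase, stood at 142, 107 and 112 FPKM in shCont, 65.8, 89.9 and 92.7 in shp16 and 82.7, 80.0 and 74.4 in shp16/shATR, with all 6 knockdown libraries below the controls. It was called lower in shp16 (-0.54 ± 0.15, adjusted p = 0.0317; -0.40 (adjusted p = 0.091) without shp16 replicate 1) and in shp16/shATR against shCont (-0.61 ± 0.15, adjusted p = 0.0122). PSAP stood at 907, 814 and 766 FPKM in shCont, 345, 652 and 646 in shp16 and 615, 639.9 and 572 in shp16/shATR, again with every knockdown library below the controls and shp16 replicate 1 the lowest. The difference of -0.60 ± 0.20 on the log2 scale in shp16 did not pass (adjusted p = 0.0725), and without both libraries that stood apart it was -0.29 (adjusted p = 0.00102).

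**Figure D4:**
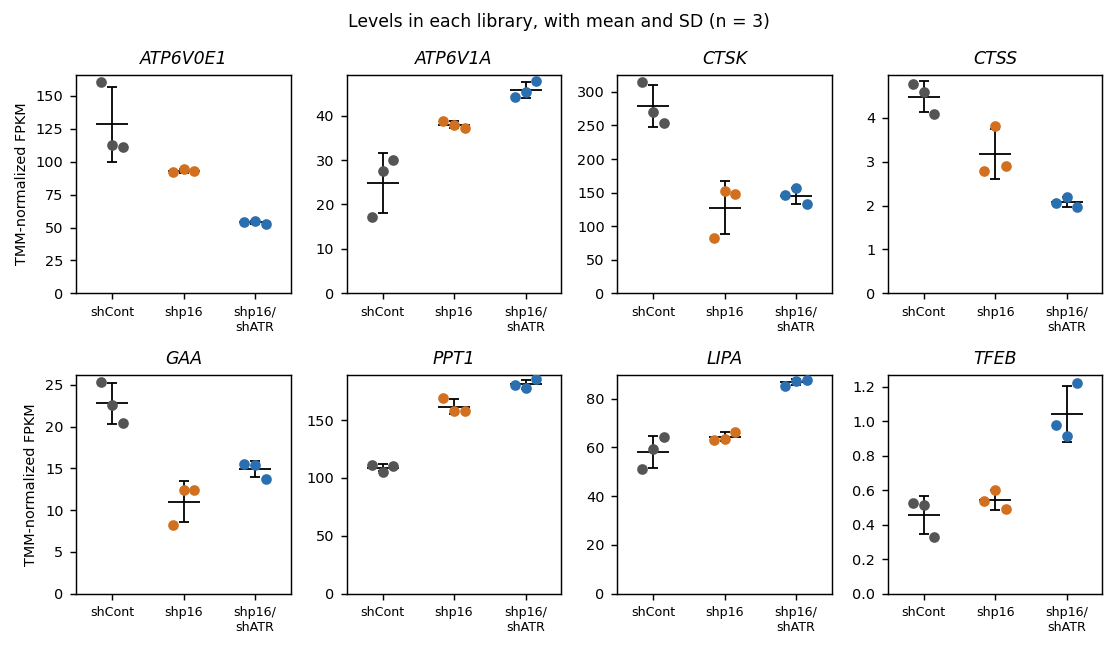
TMM-normalized FPKM of 8 genes in each library (points, in the order replicate 1 to 3 or library a to c) with the group mean and SD (n = 3); each vertical axis starts at 0. ATP6V0E1 and CTSS fall from shCont to shp16 to shp16/shATR, PPT1 and ATP6V1A lie in the opposite order, and LIPA and TFEB are set apart in shp16/shATR.

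Called V-ATPase subunits went in both directions. ATP6V0E1 (ENSG00000113732, chr5:172410760-172462448, + strand), the small subunit e of the membrane sector, stood at 161, 113 and 111 FPKM in shCont, 91.8, 94.5 and 92.6 in shp16 and 53.9, 55.2 and 53.1 in shp16/shATR. The 3 groups were separate, the libraries of each knockdown group lay close together, and shCont replicate 1 lay above its partners. The log2 fold change was -0.46 ± 0.14 in shp16 against shCont (adjusted p = 0.0415), -0.78 ± 0.14 in shp16/shATR against shp16 (adjusted p = 0.0072) and -1.25 ± 0.14 in shp16/shATR against shCont (adjusted p = 8.51e-05), or 0.421 times the control level. Both differences of shp16/shATR held the threshold in 23 of 23 alternative fits, and that of shp16 against shCont in 12 of 24. The latter was -0.27 (adjusted p = 0.0072) without shCont replicate 1 and, without shp16 replicate 1, -0.45 (adjusted p = 0.108).

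ATP6V0D1, subunit d, which joins the rotating ring to the stalk, stood at 37.6, 27.7 and 30.3 FPKM in shCont, 40.3, 31.4 and 30.2 in shp16 and 23.2, 22 and 25.1 in shp16/shATR. The shp16/shATR libraries were the 3 lowest, and shCont and shp16 overlapped. It was called lower in shp16/shATR against shCont (-0.44 ± 0.14, adjusted p = 0.0453), and against shp16 its log2 fold change of -0.54 ± 0.14 did not pass in edgeR (adjusted p = 0.0504) and was called by DESeq2. In that comparison edgeR called 1 of the 16 V-ATPase genes (6.22% of all genes). DESeq2 called 5 (ATP6V0D1, ATP6V0E1, ATP6AP1, ATP6V1B2 and ATP6V1G1), beside 9.77% of all genes. Limma called 2 of the 15 it tested, both of the V0 sector (5.78% of all genes). ATP6V0A1, the proton-conducting subunit a, stood at 23.4, 25.6 and 28.1 FPKM in shCont, 34.4, 30.1 and 30.02 in shp16 and 33.6, 34.7 and 36.7 in shp16/shATR, both knockdown groups above the controls, and was called higher in shp16/shATR against shCont (0.45 ± 0.11, adjusted p = 0.0113). ATP6V0A2, another subunit a, and ATP6V0B, a proteolipid of the ring, were not called, with log2 fold changes of 0.11 and 0.27 in shp16 against shCont. ATP6V0C, the main proteolipid, averaged 9.78 counts per library and 0.131 to 0.747 FPKM. The annotation places rows for TBC1D24 and ATP6C over it, both at 0 in every library, so its level could not be read as that of the transcript.

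Among the accessory proteins, ATP6AP1 stood at 43, 37.3 and 36.6 FPKM in shCont, 41.4, 52.6 and 51.5 in shp16 and 64, 63.8 and 61.2 in shp16/shATR, highest in the 3 shp16/shATR libraries. It was called higher in shp16/shATR against shCont (0.69 ± 0.12, adjusted p = 0.00148), and its log2 fold change was 0.32 ± 0.12 in shp16 against shCont (adjusted p = 0.0964), where the groups overlapped, and 0.42 (adjusted p = 0.0314) without shp16 replicate 1. The step from shp16 to shp16/shATR was 0.38 ± 0.12 (adjusted p = 0.0856). ATP6AP2, the prorenin receptor, stood at 58.1, 70.9 and 66.7 FPKM in shCont, 35.1, 54.8 and 56.5 in shp16 and 50.6, 53.1 and 46.2 in shp16/shATR, with every knockdown library below the controls. Its log2 fold changes of -0.42 ± 0.17 and -0.39 ± 0.17 against shCont did not pass (adjusted p = 0.114 and 0.115).

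In the V1 sector ATP6V1A (ENSG00000114573, chr3:113465866-113530903, + strand), the subunit that binds and hydrolyses ATP, stood at 17.2, 27.6 and 29.9 FPKM in shCont, 38.7, 37.9 and 37.1 in shp16 and 44.1, 45.3 and 47.7 in shp16/shATR. The groups were separate steps, and shCont replicate 1 was well below its partners. It was called higher in shp16 (0.61 ± 0.17, adjusted p = 0.033; 0.39 (adjusted p = 0.00242) without shCont replicate 1 and 0.59 (adjusted p = 0.091) without shp16 replicate 1) and in shp16/shATR against shCont (0.88 ± 0.17, adjusted p = 0.00319). ATP6V1B2, the partner subunit B, stood at 49.2, 56 and 54.7 FPKM in shCont, 54.6, 54 and 52.1 in shp16 and 67, 65.3 and 67.3 in shp16/shATR, the last group above all other libraries. It was called higher in shp16/shATR against shCont (0.32 ± 0.10, adjusted p = 0.0342) and had a log2 fold change of 0.31 ± 0.10 against shp16 (adjusted p = 0.0862). ATP6V1D, of the central stalk, stood at 48.7, 40.5 and 40.8 FPKM in shCont, 41.1, 34.3 and 34 in shp16 and 30.2, 29.9 and 33.1 in shp16/shATR, with the shp16/shATR libraries the 3 lowest. It was called lower against shCont (-0.48 ± 0.12, adjusted p = 0.0126); it overlaps EIF2S1 and MPP5 on the other strand, with means of 1829 and 664 counts beside 1390.

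The remaining V1 subunits C1, E1, F, G1 and H were not called. Their log2 fold changes ran from -0.50 (ATP6V1F) to 0.02 (ATP6V1C1) in shp16 against shCont and from -0.04 (ATP6V1C1) to 0.32 (ATP6V1G1) in shp16/shATR against shp16. ATP6V1F, a small V1 subunit, stood at 204, 108 and 109 FPKM in shCont and 104, 96.8 and 98.4 in shp16, with the first control library far above the rest. For the step from shp16 to shp16/shATR, edgeR called none of the 8 V1 subunits (2 at an unadjusted p under 0.05), beside 6.22% of all genes. DESeq2 called 2, ATP6V1B2 and ATP6V1G1 (9.77% of all genes), and limma on log2(FPKM + 1) called none (5.78% of all genes).

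With all 9 libraries the membrane proteins gave no call in any comparison by edgeR, DESeq2 or limma. LAMP2, which also takes part in chaperone-mediated autophagy, stood at 112, 147 and 154 FPKM in shCont, 129, 136 and 135 in shp16 and 130.3, 132 and 133 in shp16/shATR, with the knockdown libraries inside the range of the controls, and its log2 fold changes were -0.04 ± 0.12, -0.02 ± 0.12 and -0.06 ± 0.12, values whose sign changed between alternative fits. LAMP1 stood at 60.5, 50.7 and 53.7 FPKM in shCont, 48.6, 58.6 and 56.5 in shp16 and 55, 55.3 and 53.5 in shp16/shATR and also overlapped in every comparison. CD63 ran from 1284 to 2019 FPKM in shCont, where replicate 1 was the highest, from 1485 to 1542 in shp16 and from 1736 to 1820 in shp16/shATR. SCARB2, which carries glucocerebrosidase to the lysosome, and MCOLN1, a calcium channel of its membrane, had log2 fold changes of -0.02 and -0.26 in shp16 against shCont. MCOLN1 overlaps PNPLA6 on the same strand, with a mean of 3081 counts beside 982, so reads there could be shared. Across the 5 genes the log2 fold changes ran from -0.26 to -0.01 in shp16 against shCont, from -0.02 to 0.23 in shp16/shATR against shp16 and from -0.13 to 0.18 in shp16/shATR against shCont, none past an unadjusted p of 0.05. Without both libraries that stood apart, CD63 was called higher in shp16 at 0.18 (adjusted p = 0.0212) and LAMP2 lower at -0.15 (adjusted p = 0.0296).

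**Figure D5:**
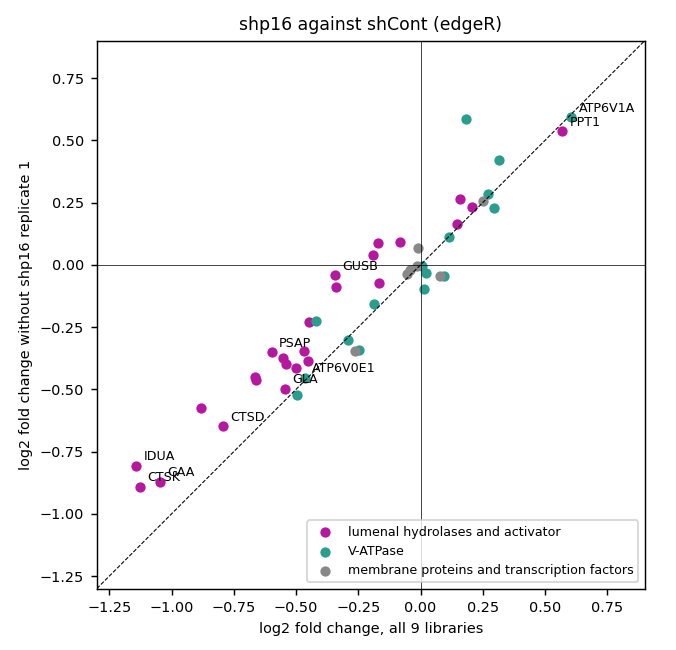
Log2 fold change of the 48 genes in shp16 against shCont from edgeR with all 9 libraries (horizontal) and without shp16 replicate 1 (vertical); the dashed line marks equality. Most lumenal hydrolases lie above the line and below 0 on both axes, while V-ATPase genes lie on both sides of it, among them ATP6AP2 (-0.42 and -0.23), ATP6AP1 (0.32 and 0.42) and ATP6V0D1 (0.09 and -0.04).

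TFEB (ENSG00000112561, chr6:41651716-41703997, - strand) was among the lowest transcripts, at 35.7 counts per library on average. It stood at 0.528, 0.515 and 0.327 FPKM in shCont, 0.54, 0.603 and 0.488 in shp16 and 0.978, 0.917 and 1.22 in shp16/shATR. The shp16/shATR libraries were the 3 highest, while shCont and shp16 overlapped. The difference on the log2 scale was 1.18 ± 0.26 in shp16/shATR against shCont (adjusted p = 0.00764), past the threshold in 23 of 23 alternative fits, and 0.93 ± 0.26 against shp16 (adjusted p = 0.0575), past it in 5 of 23. TFE3 stood at 16.5, 13.5 and 13.5 FPKM in shCont, 17.8, 15.1 and 12.9 in shp16 and 17.1, 16.6 and 16.6 in shp16/shATR, with log2 fold changes of 0.08 ± 0.13, 0.13 ± 0.13 and 0.21 ± 0.13 and no call. MITF, the melanocyte relative of both, stood at 113, 149 and 165 FPKM in shCont, 171, 143 and 139 in shp16 and 128, 126 and 136 in shp16/shATR and was not called (log2 fold changes 0.09, -0.22 and -0.13). RNA levels say nothing of where these factors were in the cell.

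TFEB and TFE3 bind the CLEAR element, a palindrome of 10 bases that is TCACGTGA with G before and C after it, and the family also binds the shorter E-box CACGTG. RefSeq promoter windows (250 bases before to 50 after a start, build GRCh38.p14) were at hand for 34 of the 48 genes. ATP6V0E1, ATP6V1A, ATP6V1B2, ATP6V1C1, ATP6V1H, CTSB, CTSK, CTSS, HEXA, LAMP2, MANBA, NAGLU, PSAP and SGSH were not matched. Both strands were searched, and a match to a longer motif is also a match to the shorter ones inside it. The CLEAR palindrome was in a window of 3 of the 34 genes (8.82%), beside 0.421% of 27305 genes, TCACGTGA in 6 (17.6%, beside 1.18%), CACGTG in 11 (32.4%, beside 8.77%) and CATGTG in 8 (23.5%, beside 13.4%). Of the 9 matched genes that were lower in shp16, 3 held CACGTG, and of the 25 others 8 did (33.3% and 32.0%). The sites of the 8- and 10-base motifs are shown, with the motif in capitals, because their genes include members that were called and members that were not.
GAA chr17:80101493-80101522 (+ strand, motif starting 78 bases before the start): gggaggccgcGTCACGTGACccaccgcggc
GAA chr17:80101538-80101567 (+ strand, motif starting 33 bases before the start): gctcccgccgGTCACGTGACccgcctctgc
ATP6V0D1 chr16:67481200-67481227 (- strand, motif starting 60 bases before the start): ccccttatggTCACGTGAggcgcttgcg
ATP6V1G1 chr9:114587699-114587728 (+ strand, motif starting 60 bases before the start): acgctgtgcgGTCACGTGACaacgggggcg
CTSA chr20:45891299-45891326 (+ strand, motif starting 26 bases before the start): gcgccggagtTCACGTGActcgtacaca
LAMP1 chr13:113297200-113297227 (+ strand, motif starting 29 bases before the start): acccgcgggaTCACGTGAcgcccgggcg
LAMP1 chr13:113297227-113297254 (+ strand, motif starting 2 bases before the start): gcggcgcagcTCACGTGAcaagcgctgc
MCOLN1 chr19:7522598-7522627 (+ strand, motif starting 16 bases before the start): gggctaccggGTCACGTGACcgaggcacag
MCOLN1 chr19:7522572-7522599 (+ strand, motif starting 42 bases before the start): ccagaggcggTCACGTGAggggctctgg
GAA, with 2 copies of the 10-base motif, was called lower in shp16, and ATP6V0D1 lower in shp16/shATR against shCont. ATP6V1G1 and MCOLN1, which also hold the 10-base motif, and CTSA and LAMP1, which hold TCACGTGA alone, were called in no comparison by edgeR with all libraries. DESeq2 called ATP6V1G1 in shp16/shATR against shp16. A match describes letters in the window and not binding.

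The wider set of lysosome genes, 79 further symbols of which 73 rows were tested, was counted in the same way. In shp16 against shCont 23 were called (31.5%, beside 14.8% of all genes), 4 higher and 19 lower, with a median of -0.20. The wider set was not counted without shp16 replicate 1, so how far its counts rest on that library was not tested. For the main gene set, leaving that library out lowered the share called in this comparison to 10.4%, beside 8.95% of all genes. From shp16 to shp16/shATR 6 were called (8.22%, beside 6.22% of all genes), 5 higher and 1 lower, with a median of 0.07. Against shCont, shp16/shATR had 26 called (35.6%, beside 23.6% of all genes), 9 higher and 17 lower, with a median of -0.10. GALC, the galactosylceramidase, had the largest rise in shp16: it stood at 0.887, 1.19 and 1.25 FPKM in shCont, 2.61, 3.43 and 3.3 in shp16 and 3.02, 3.98 and 3.46 in shp16/shATR, all 6 knockdown libraries above the controls (1.49 ± 0.18, adjusted p = 0.000273). ATP6V0D2, the second isoform of subunit d and best known from osteoclasts, stood at 17.4, 16.6 and 18.6 FPKM in shCont, 6.65, 6.61 and 6.48 in shp16 and 5.16, 5.09 and 5.13 in shp16/shATR, with libraries of a group close to each other, replicate 1 included (-1.42 ± 0.10, adjusted p = 5.66e-06). Its ubiquitous counterpart ATP6V0D1 had a log2 fold change of 0.09 ± 0.14 there. ATP6V1B1, the isoform of subunit B found in acid-secreting epithelia, was lower (-1.49 ± 0.41, adjusted p = 0.033) at 0.191, 0.398 and 0.281 FPKM in shp16 against 1.23, 0.647 and 0.577 in shCont. It had few counts, at 7, 16 and 11 in shp16 and 53, 24 and 22 in shCont, with replicate 1 the extreme library in both groups. CTSO, a cysteine protease, and SIAE, a sialic acid esterase, were lower too (-1.29 ± 0.17 and -1.21 ± 0.20, adjusted p = 0.000517 and 0.00191).

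Between shp16 and shp16/shATR the largest called change in this wider set was in FUCA1, the lysosomal alpha-fucosidase. It stood at 75.8, 58.4 and 61.1 FPKM in shCont, 46.8, 56.6 and 54.3 in shp16 and 107, 108 and 105 in shp16/shATR, with the last group above all other libraries (1.02 ± 0.12, adjusted p = 0.00106, 2.03 times the shp16 level). ARSG, a sulfatase that acts on heparan sulfate, and LITAF, an endosomal and lysosomal membrane protein, were higher at 0.51 ± 0.11 and 0.48 ± 0.10 (adjusted p = 0.0236 and 0.0179). TPCN1, a cation channel of endolysosomes, was lower at -0.42 ± 0.10 (adjusted p = 0.0294), and stood at 15.8, 15.1 and 15.1 FPKM in shCont, 20.5, 18.6 and 18.9 in shp16 and 14.7, 15.3 and 13.5 in shp16/shATR, so that the shp16 libraries were the 3 highest.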

How the data were processed

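RNA-seq of 9 SKMEL28 libraries was analysed. The authors deposited raw counts per gene and FPKM, in 1 table each. Their processing notes name STAR 2.6.1, DESeq2 version 2 and GRCh38, but the gene positions in the tables are those of GRCh37 and are printed as deposited. The counting tool, its strand setting and the annotation release are not given in the sources used here. FPKM recomputed from the deposited counts, gene length and library total differed from the deposited FPKM by a relative 4.22e-07 at most. The 3 shp16/shATR count columns share 1 header, and those libraries are called a, b and c. By that match to the deposited FPKM, a, b and c follow the order of the replicate numbers.

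Counts were tested with edgeR 4.0.16 (R 4.3.3) on all 9 libraries: filterByExpr, TMM, glmQLFit and glmQLFTest with 1 coefficient per group, and Benjamini-Hochberg adjustment over 15776 genes with a threshold of 0.05. Levels are FPKM recomputed with TMM-scaled totals, and errors of fold changes are standard errors derived from the test. The script was tested on simulated counts. DESeq2 1.42.0 and limma 3.58.1 on log2(FPKM + 1), with a mean FPKM filter of 0.5, were alternatives, as were other normalizations, filters and left-out libraries. Leaving out both libraries that stood apart, and removing a GC and length trend by splines, were chosen after seeing the data. Promoter windows came from RefSeq, build GRCh38.p14. Figures were drawn with matplotlib 3.10.9.

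The 48 genes, the wider lysosome list and the marker lists were chosen with earlier results of these data known. The 23 members called in at least 1 comparison, with LAMP2, TFEB and TFE3, were named with their values, and the others by ranges, apart from CTSA, CTSB, GLB1, PSAP, ATP6AP2, ATP6V1F, LAMP1 and CD63, whose values are given after they were seen. From the wider list the 5 called genes of largest change in each of the first 2 comparisons were named, with MITF, except for a gene of the second comparison that is not reported here. Replicate numbers did not pair libraries: deviations from the group means of same-numbered libraries correlated at -0.30 to 0.29.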

Additional observations from a re-analysis of the deposited data

How the results depend on the processing

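Of 137 alternative counts and medians over the 48 genes, 86 stayed within 1.5 times the reported count or within the spread between libraries and 51 did not. The percentages that follow are the shares of all genes tested called in the same fit. In shp16 against shCont, where 15 genes were called (14.8%), 8 were called with library size as the only scaling (13.3%) and 4 with only the compared groups in the fit (7.83%). Limma called 6 on log2(FPKM + 1) (12%), 6 on log2(FPKM + 0.1) (11.4%) and 4 with no filter (4.76%). At an adjusted p under 0.01, 4 were called (6.3%), with 6 when shp16 replicates 2 and 3 were summed (8.44%) and 24 without both libraries that stood apart (32.7%). With the replicate number as a block and only the compared groups in the fit, edgeR called 0 (2.79%), with 16 at an unadjusted p under 0.05 and a median of -0.23. That fit without the block called the 4 given above (7.83%). Limma with the block on all 9 libraries called 4 (8.22%). The replicate numbers share no known source. Leaving out a library in turn gave 5 to 16. The median of -0.19 was -0.25 with upper-quartile scaling, -0.24 with limma on log2(FPKM + 0.1), -0.076 without both, and -0.25 to -0.082 with a library left out. In shp16/shATR against shp16, where 3 were called (6.22%), DESeq2 called 8 (9.77%), no filter 5 (4.39%), a minimum of 10 counts 5 (7.64%), only the compared groups 12 (18.9%) and limma with no filter 1 (1.98%). There an adjusted p under 0.01 gave 1 (1.96%), summed replicates 1 (2.46%), both libraries out 25 (26.7%) and the GC and length trend removed 9 (12.6%), and leaving out a library gave 1 to 14. The median of 0.15 was 0.19 with upper-quartile scaling, 0.19 with summed replicates, 0.022 without both, 0.12 with the trend removed and 0.027 to 0.20 with a library left out. In shp16/shATR against shCont, where 17 were called (23.6%), 8 passed an adjusted p under 0.01 (12.5%), 31 were called without both (44.3%) and 9 to 21 with a library left out, and no median moved beyond the spread. Among the called genes with LAMP2, TFEB and TFE3, 753 values kept direction and side of the threshold, 238 lost the call, 9 gained it and 7 changed sign. The last were LAMP2 in shp16 against shCont (-0.18 to 0.044 with a library left out, above 0 without shCont replicate 2 or 3, and 0.011 with the trend removed), in shp16/shATR against shp16 (0.022 with upper-quartile scaling) and in shp16/shATR against shCont (0.026 without shCont replicate 3, 0.00058 with the trend removed), and TFE3 in shp16 against shCont (-0.044 without shp16 replicate 1). Over all 48 genes, 17 changed sign in at least 1 alternative in the first of these comparisons, 19 in the second and 14 in the last. None of these was called in that comparison by edgeR with all libraries. In shp16 against shCont, CTSK, GAA, GLA and PPT1 kept their call in 23 of 24 alternatives. They lost it in edgeR with the replicate block and only the compared groups in the fit (adjusted p = 0.079, 0.0633, 0.126 and 0.0686). The causes of these differences were not tested. Among the 48 genes, counts per library limit ATP6V0C, TFEB and IDUA most.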
